A study of Mus musculus with 96 samples.

Results

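A set of 9 genes of hepatic glucose and glycogen handling was followed in mice given an antipsychotic drug. They were Pck1, Fbp1, Tat, Ppargc1a, Pklr, Slc2a2, Gys2, Ppp1r3b and Ppp1r3c, taken by symbol from the probe-to-gene table of the array. All 9 of the 9 symbols were found among 19505 measured genes, each as 1 transcript cluster (the set of probes read as 1 transcript). The arrays were Affymetrix mouse Clariom S, and the values are log2 signals, so a difference of 1 is a doubling. Liver, adipose tissue, pancreas and striatum were taken from 24 C57BL/6JOlaHsd mice on chow, which gives 96 arrays. The 3 groups of 8 mice (4 males and 4 females in each) received a subcutaneous injection every day for 28 days: olanzapine at 3.5 mg/kg, risperidone at 1 mg/kg, or vehicle, which was saline with DMSO and Tween 20. All were decapitated 1 h after the last injection. Chow was not restricted during treatment, but blood glucose was read after a morning fast at its end, and the sources used here do not say whether the tissues were taken in the fasted state. The adipose tissue was visceral fat from the gonadal pads, and every tissue was a mixture of cell types.

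The liver stores glucose as glycogen after a meal and releases glucose between meals, by breaking glycogen down and by building glucose from lactate, glycerol and amino acids. Pck1 (cytosolic phosphoenolpyruvate carboxykinase) and Fbp1 (fructose-1,6-bisphosphatase) are enzymes of that building route, Tat (tyrosine aminotransferase) degrades an amino acid that feeds it, and Ppargc1a is a transcriptional coactivator that raises the route in fasting. Pklr, the pyruvate kinase of liver and red cells, runs glucose the other way through glycolysis, and Slc2a2 (GLUT2) carries glucose across the hepatocyte membrane. Gys2 is the glycogen synthase of liver, and Ppp1r3b and Ppp1r3c are regulatory subunits that bring protein phosphatase 1 to glycogen, where it activates the synthase.

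Promoter sequence is shown for 3 members whose liver values are described below, to place them beside the response elements usually discussed for this pathway. The 250 bases before the RefSeq start were read on the gene's own strand, build GRCm38.p6. They are Pck1 (chr2:173152823-173153072, plus strand), Ppargc1a (chr5:51567726-51567975, minus strand) and Ppp1r3c (chr19:36736605-36736854, minus strand), and capitals mark the motif found.
Pck1: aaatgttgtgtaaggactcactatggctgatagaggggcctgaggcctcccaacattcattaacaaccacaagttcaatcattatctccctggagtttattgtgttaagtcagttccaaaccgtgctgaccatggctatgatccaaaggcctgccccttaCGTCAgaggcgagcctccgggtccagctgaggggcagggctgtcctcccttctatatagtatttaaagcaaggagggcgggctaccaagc
Ppargc1a: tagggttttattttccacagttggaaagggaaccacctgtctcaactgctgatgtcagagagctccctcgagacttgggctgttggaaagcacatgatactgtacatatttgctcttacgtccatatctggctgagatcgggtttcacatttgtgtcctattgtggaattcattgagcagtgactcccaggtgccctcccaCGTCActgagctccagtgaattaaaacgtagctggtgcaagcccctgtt
Ppp1r3c: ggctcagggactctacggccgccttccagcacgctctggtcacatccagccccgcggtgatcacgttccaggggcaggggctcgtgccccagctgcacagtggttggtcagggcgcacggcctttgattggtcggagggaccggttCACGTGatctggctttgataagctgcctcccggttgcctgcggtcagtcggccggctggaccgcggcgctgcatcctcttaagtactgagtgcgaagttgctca
Both strands were searched for 5 motifs, and matches of different motifs did not overlap in these windows. The half-site of the cyclic AMP response element (TGACG) began at position -90 from the start of Pck1 and at -49 from that of Ppargc1a, and 17.8% of the 32851 mouse windows of this length held it. The E-box CACGTG began at -104 from the start of Ppp1r3c, as it did somewhere in 6.02% of windows. The motifs TGTTTAC (3.17% of windows) and TGTTCT (16.1%) had no match in the member windows searched, and TATAAA (12.4%) had a match in a Pklr window only. A match of letters is a description and not a binding site. Sequences were matched for 7 of the 9 members, all but Gys2 and Ppp1r3b.

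In liver, 4 members sat at the top of the array. The median over 24 livers was 18.27 for Pck1, 18.22 for Tat, 17.95 for Slc2a2 and 17.01 for Fbp1, above 99.7%, 99.7%, 99.6% and 99.4% of the genes on the same array, where the highest value of any gene was 19.93. Gys2 (median 14.63) and Ppp1r3b (13.29) stood at percentiles 97.9 and 96.1, Pklr (12.25) at 94.0, Ppargc1a (10.6) at 88.0 and Ppp1r3c (8.80) at 77.3. Spread over the 24 livers ran from an SD of 0.248 for Pck1 to 1.598 for Ppp1r3c. The mean of 10 hepatocyte markers was 18.77 to 19.19 in every liver, and no comparison of a marker list between a drug and vehicle, in any tissue, passed adjustment (0 of 62 exact two-sided permutation tests, 5 at an unadjusted p under 0.05). With mice relabelled only within their sex, an alternative added after seeing the data, it was again 0 of 62, with 5 at an unadjusted p under 0.05, and the lowest of these was the epididymis list in adipose tissue under risperidone, described below. A pair of livers stood apart in several members. Olanzapine M9 (a male, as the letter gives the sex and the number the mouse) was the lowest of 24 in Slc2a2 and Ppp1r3b and the highest in Fbp1 and Tat, and vehicle F1 was the lowest in Pck1 and Gys2.

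**Figure D1:**
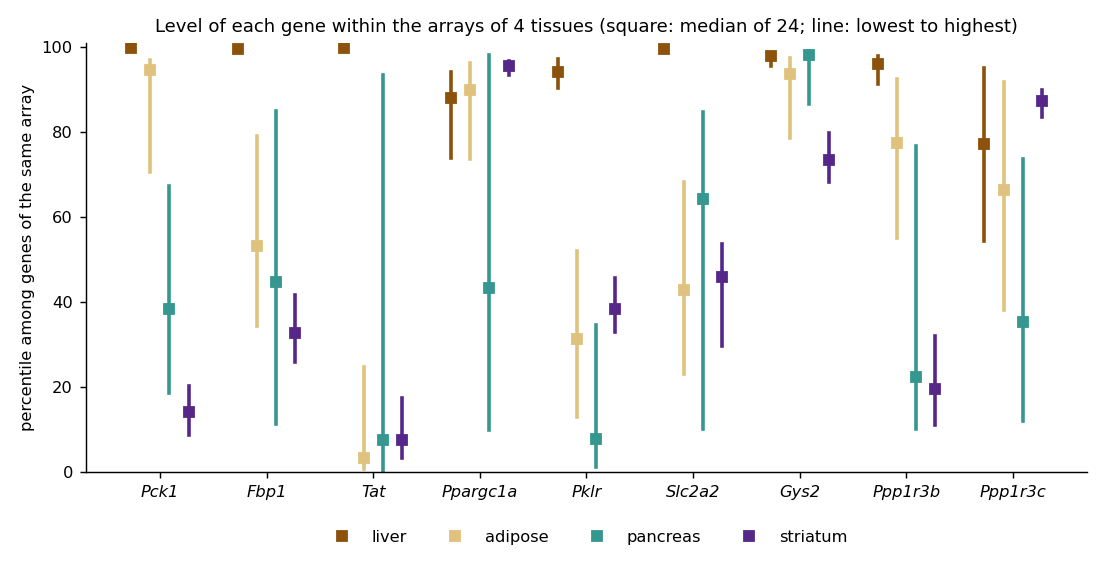
Percentile of each member among all genes of the same array (vertical axis, 0 to 100) for liver, adipose tissue, pancreas and striatum; squares are medians over 24 mice and lines run from the lowest to the highest array. Pck1, Fbp1, Tat and Slc2a2 sit above percentile 99 in liver, while Ppp1r3c and Ppargc1a have their highest medians in striatum.

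Outside the liver the order changed. Levels across tissues were set side by side only as percentiles within an array, since 2 labelling kits were used and the median signal of the arrays differed between tissues (6.07 to 6.28 in liver, 7.58 to 7.69 in striatum). Ppargc1a had a median percentile of 95.6 in striatum, 89.8 in adipose tissue, 88.0 in liver and 43.4 in pancreas, and the range of each of these tissues overlapped that of the next. Ppp1r3c, at 87.3 in striatum, stood at 77.3 in liver, 66.3 in adipose tissue and 35.3 in pancreas, and here too the range of each tissue overlapped that of the next. Gys2 was high in pancreas (98.0) and liver (97.9), whose ranges overlapped, then in adipose tissue (93.6) and striatum (73.5). Pck1 was at 94.6 in adipose tissue and at 14.3 in striatum. Tat, Pklr and Fbp1 had medians at or below percentile 53.3 in all 3 other tissues. These are descriptions with no test.

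The first question was whether either drug moved these genes in liver. The clearest difference was in Ppp1r3b, the glycogen-targeting subunit most typical of liver. Its lowest, median and highest values were 11.30, 12.92 and 13.47 in olanzapine livers, 13.68, 14.225 and 14.53 in risperidone livers, and 11.56, 12.675 and 13.73 in vehicle livers. All 8 olanzapine mice lay below every risperidone mouse. Of the 8 risperidone mice, 7 lay above every vehicle mouse. Olanzapine and vehicle overlapped, with 1 olanzapine mouse below every vehicle mouse.
Ppp1r3b averaged 12.70 ± 0.67 in olanzapine livers and 14.14 ± 0.29 in risperidone livers (SD, n = 8 each), a log2 difference of -1.44 (SE 0.27, limma adjusted p = 0.0309), or 2.71-fold lower under olanzapine (95% interval 1.83 to 4.00). It was the 1 member of 9 called between the drugs, where 0.0564% of all genes were called. Against vehicle livers (12.75 ± 0.77, n = 8), risperidone livers were higher by 1.39 (SE 0.27), which is 2.62-fold (1.78 to 3.87). It stood at rank 9 of 19505 genes by p, with a limma adjusted p of 0.0515, just outside the threshold of 0.05. The olanzapine minus vehicle difference was -0.05 (95% interval -0.61 to 0.52).

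The Ppp1r3b difference between risperidone and vehicle was 1.43 (SE 0.40) in males and 1.36 (SE 0.40) in females, and the sexes differed in it by 0.07 (95% interval -1.09 to 1.23). Neither difference was called within a sex. The lowest limma adjusted p of any of the 9 members was 0.9158 in males and 0.4275 in females. Of all 19505 genes, 1 was called in males and 24 in females. The males alone averaged 14.09 ± 0.41 under risperidone and 12.66 ± 0.68 under vehicle, and the females 14.19 ± 0.17 under risperidone and 12.84 ± 0.95 under vehicle (SD, n = 4 each), and the risperidone females were the most closely grouped of these. The call depended on single mice. Leaving out each mouse in turn gave adjusted p-values of 0.0127 to 0.132 for risperidone minus vehicle, called in 5 of 24 such fits, and of 0.0174 to 0.0926 for olanzapine minus risperidone, called in 15 of 24, all by limma. The size of the effect moved little, between 1.19 and 1.54 for the first comparison and between -1.535 and -1.25 for the second. Without both vehicle F1 and olanzapine M9, a fit chosen after seeing the data, risperidone minus vehicle was 1.47 (limma adjusted p = 0.00677, where 0.0718% of genes were called) and olanzapine minus risperidone -1.24 (limma adjusted p = 0.0225, where 0.2% were). Olanzapine M9 had the lowest Ppp1r3b of the 24 livers, so the choice drew on values of this gene and that fit gives no independent support. The olanzapine minus risperidone call was lost with no sex covariate (adjusted p = 0.0898), with a trended and robust prior (0.0558), and in each sex alone, where the differences were -1.63 in males (adjusted p = 0.302) and -1.24 in females (0.476), all by limma.

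**Figure D2:**
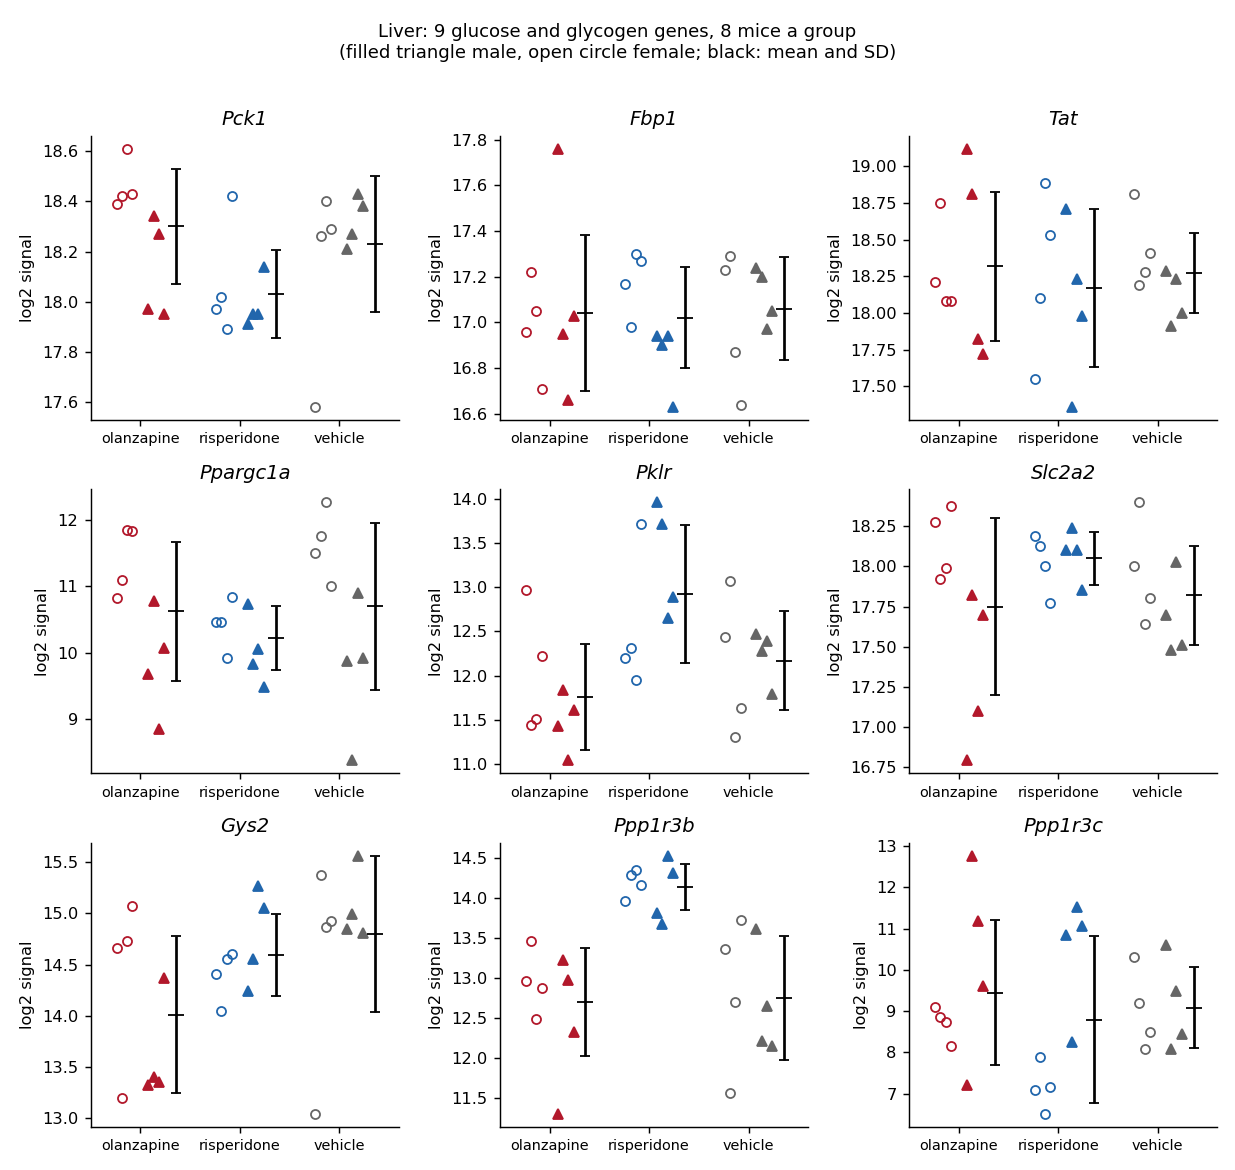
Log2 signal (vertical axis) of the 9 members in liver under olanzapine, risperidone and vehicle; each point is 1 mouse (filled triangles males, open circles females) and black bars give mean and SD of 8. In the Ppp1r3b panel the risperidone mice lie between 13.68 and 14.53, above all olanzapine mice (11.30 to 13.47) and 7 of them above all vehicle mice.

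Pklr, the glycolytic member, also had its highest group mean under risperidone but did not pass the test. Its lowest, median and highest values were 11.04, 11.56 and 12.97 in olanzapine livers, 11.95, 12.77 and 13.96 in risperidone livers and 11.31, 12.335 and 13.07 in vehicle livers. Of the 8 olanzapine mice, 6 lay below every risperidone mouse. The olanzapine minus risperidone difference was -1.17 (SE 0.30, limma adjusted p = 0.156, rank 62 by p), and the risperidone minus vehicle difference was 0.75 (SE 0.30, limma adjusted p = 0.768). Among males alone, means were 11.48 ± 0.34 under olanzapine and 13.30 ± 0.63 under risperidone (SD, n = 4 each), and the fit on males called it (-1.82, limma adjusted p = 0.0309, where 0.0461% of genes were called). Females averaged 12.04 ± 0.72 under olanzapine and 12.54 ± 0.80 under risperidone (SD, n = 4 each), a difference of -0.51 that was not called in the fit on females (limma adjusted p = 0.878). Whether the sexes differed in this was not tested.

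Gys2, the synthase that Ppp1r3b serves, had its lowest group mean under olanzapine, with a difference from vehicle that did not pass the test. Its values ran from 13.20 through a median of 13.885 to 15.07 in olanzapine livers, from 14.05 through 14.55 to 15.27 in risperidone livers and from 13.04 through 14.90 to 15.56 in vehicle livers. The olanzapine minus vehicle difference was -0.79 (SE 0.30, limma adjusted p = 0.637). It was -1.44 (SE 0.40, adjusted p = 0.389) in males and -0.14 in females, where vehicle mouse F1 was at 13.04 and the other 3 vehicle females at 14.87 to 15.38. The sex-by-olanzapine term was -1.30 (SE 0.56, limma adjusted p = 0.920). Without vehicle F1 and olanzapine M9 (a pair chosen after seeing the data) the overall difference was -0.96 with an adjusted p of 0.177.

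The gluconeogenic members differed little between groups. Pck1 averaged 18.30 ± 0.23 in olanzapine livers, 18.03 ± 0.18 in risperidone livers and 18.23 ± 0.27 in vehicle livers (SD, n = 8 each), with differences from vehicle of 0.07 (95% interval -0.20 to 0.34) and -0.20 (-0.46 to 0.07). Fbp1 differed from vehicle by -0.02 (-0.32 to 0.28) under olanzapine and -0.05 (-0.34 to 0.25) under risperidone. The Tat differences were 0.06 (-0.38 to 0.50) and -0.10 (-0.53 to 0.34). These intervals leave out a doubling or halving of the array signal of any of the 3 genes. Whether signal so near the top of the array follows the amount of message in step was not tested.
Slc2a2, the transporter, differed by -0.07 (-0.42 to 0.27) under olanzapine and 0.23 (-0.12 to 0.57) under risperidone, and its lowest livers were olanzapine M9 (16.79) and M26 (17.10). Ppargc1a and Ppp1r3c gave wider intervals. For Ppargc1a the differences were -0.08 (-0.73 to 0.58) under olanzapine and -0.48 (-1.14 to 0.17) under risperidone, and for Ppp1r3c 0.37 (-0.90 to 1.63) and -0.30 (-1.56 to 0.97). Single livers moved the Ppp1r3c value under olanzapine, which was 0.82 without olanzapine M9, 0.67 without vehicle F1 and 1.17 without both (SE 0.52, limma adjusted p = 0.607).
In counts, 0 of 9 members were called for olanzapine minus vehicle, where 0.0205% of genes were called, and 1 had an unadjusted p under 0.05. For risperidone minus vehicle it was 0 of 9, against 0.041% of all genes, with 2 at an unadjusted p under 0.05. The 2 drug comparisons share the vehicle mice. The members' median difference was -0.05 for olanzapine and -0.10 for risperidone, beside medians of 0.01 and -0.0025 over all genes.

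**Figure D3:**
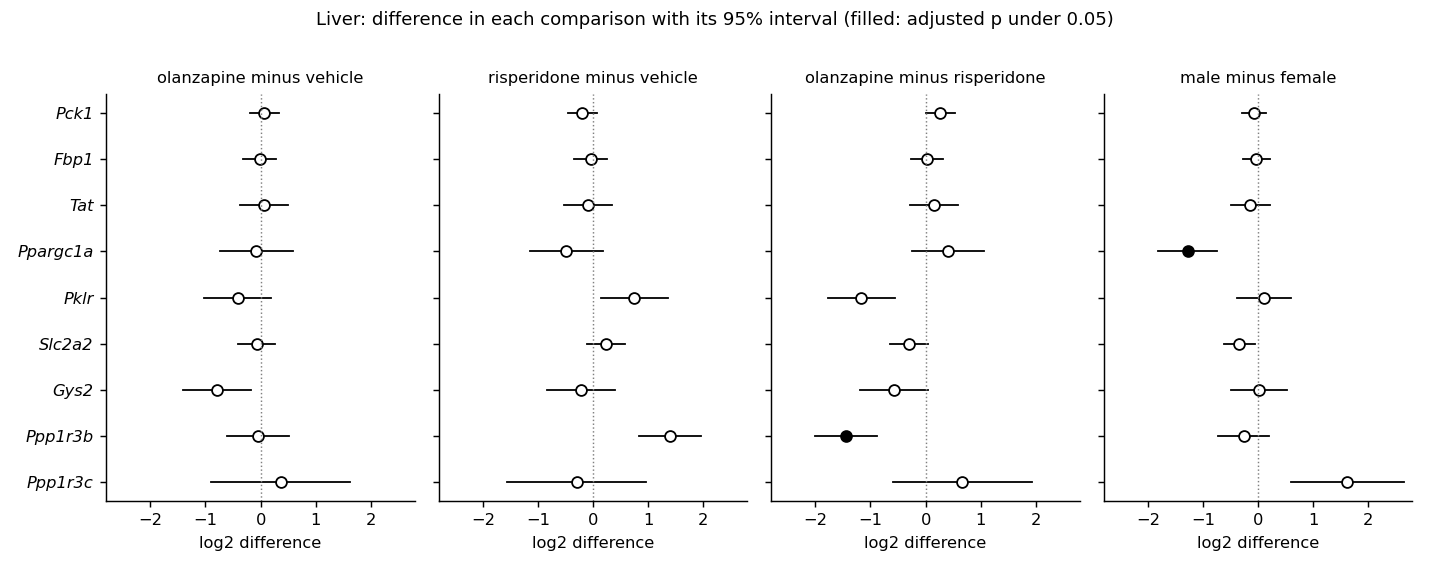
Log2 difference (horizontal axis) of each member in liver with its 95% interval for olanzapine minus vehicle, risperidone minus vehicle, olanzapine minus risperidone and male minus female; filled points have a limma adjusted p under 0.05. Filled are Ppp1r3b between the drugs (-1.44) and Ppargc1a between the sexes (-1.28).

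The wider pathway was read from 6 lists holding 138 genes beside the members, of which 117 were measured. None of the 117 was called by limma against vehicle for either drug, or between the drugs. At an unadjusted p under 0.05 there were 8 for olanzapine (6.84%, beside 6.56% of all genes) and 12 for risperidone (10.3%, beside 5.40% of all genes), 10 of which were higher. Between the drugs there were 16 (13.7%, beside 7.76% of all genes), 15 of them lower under olanzapine.
In the glycogen list (28 measured), the lowest p against vehicle under both drugs belonged to Ppp1ca, the catalytic subunit that Ppp1r3b and Ppp1r3c bind. Ppp1ca differed by 0.51 (SE 0.13, adjusted p = 0.351) under olanzapine and by 0.45 (SE 0.13, adjusted p = 0.422) under risperidone. Next under olanzapine were Ppp1r3a, the muscle targeting subunit (-0.45, SE 0.14), and the phosphorylase kinase subunit Phka2 (0.45, SE 0.22), and under risperidone Ppp1r3e (-0.31, SE 0.13) and Pygl, the liver glycogen phosphorylase (0.34, SE 0.16). Between the drugs the list was led by Ppp1r3a (-0.59, SE 0.14, adjusted p = 0.12), Gsk3b, a kinase that restrains glycogen synthase (-0.36, SE 0.13), and Phka2 (0.43, SE 0.22).
The glycolysis list (22 measured) held the lowest p of all the lists between the drugs, that of Tkfc, which acts in fructose breakdown (-0.92, SE 0.20, adjusted p = 0.0785). Khk, which phosphorylates fructose, followed (-0.89, SE 0.25, adjusted p = 0.244) with Pfkfb3 (-0.96, SE 0.33). Under olanzapine against vehicle the 3 were Pfkfb3 (-0.98, SE 0.33, adjusted p = 0.597), Tkfc (-0.50, SE 0.20) and Pfkl (-0.30, SE 0.18). Under risperidone against vehicle they were Khk (0.90, SE 0.25, adjusted p = 0.356), Hk2 (-0.43, SE 0.15) and Pdk4, which shuts pyruvate dehydrogenase (1.18, SE 0.47).
Among the controls of glucose output (25 measured), the lowest p-values were those of Foxo3 (-0.36, SE 0.16), Per1 (-0.46, SE 0.22) and the glucocorticoid-induced Tsc22d3 (-0.92, SE 0.43) under olanzapine, and of Nr4a1 (0.52, SE 0.17), the cyclic AMP coactivator Crtc2 (-0.26, SE 0.14) and Fkbp5 (0.61, SE 0.33) under risperidone. Between the drugs they were those of Nr4a1 (-0.65, SE 0.17, adjusted p = 0.205), Foxo1 (-0.62, SE 0.19) and Hnf4a (-0.33, SE 0.14).
The gluconeogenic enzymes and carriers (16 measured) held Mdh1 (0.20, SE 0.11), Slc25a22 (0.46, SE 0.30) and Slc37a4 (-0.27, SE 0.19) under olanzapine, and Slc25a11 (0.49, SE 0.19), Mdh1 (0.26, SE 0.11) and Slc25a10 (0.34, SE 0.18) under risperidone. Between the drugs they held Gpd1 (-0.53, SE 0.23), Slc37a4 (-0.41, SE 0.19) and Fbp2 (-0.39, SE 0.19).
In the amino acid list (17 measured) the lowest p-values were those of Agxt (0.51, SE 0.26), Prodh (0.34, SE 0.22) and Hal (0.48, SE 0.35) under olanzapine, and of Prodh (0.48, SE 0.22), Gpt2 (0.28, SE 0.16) and Oat (0.38, SE 0.27) under risperidone. Between the drugs they were Gpt2 (-0.44, SE 0.16), Agxt (0.39, SE 0.26) and Hal (0.41, SE 0.35).
The transporters (9 measured) stayed above an unadjusted p of 0.05 in all 3 comparisons. Their 3 lowest were Slc2a8 (0.20), Slc16a1 (0.26) and Slc2a1 (0.24) under olanzapine, Slc16a1 (0.21), Slc2a4 (0.13) and Slc2a9 (0.17) under risperidone, and Slc2a8 (0.21), Slc2a3 (0.24) and Slc5a1 (-0.28) between the drugs. None of these genes passed the test after adjustment.

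The next comparison was of the sexes. Ppargc1a was lower in male livers, running from 8.37 through a median of 9.90 to 10.90 in males and from 9.91 through 11.06 to 12.27 in females. Of the 12 males, 6 lay below every female. The male minus female difference was -1.28 (SE 0.26, limma adjusted p = 0.0018), 2.42-fold lower in males (1.67 to 3.51), and it was called with each mouse left out in turn (24 of 24). Ppargc1a was the 1 member of 9 called, where 6.23% of all genes were called.
By treatment, the Ppargc1a difference between males and females was -1.56 under olanzapine (means 9.85 ± 0.80 in males and 11.41 ± 0.52 in females, adjusted p = 0.0444, where 2.12% of genes were called). Under risperidone it was -0.40 (10.02 ± 0.53 in males and 10.42 ± 0.38 in females, with 1.75% of genes called and Ppargc1a not among them). Under vehicle it was -1.87 (9.77 ± 1.04 in males and 11.64 ± 0.52 in females, adjusted p = 0.0187, where 0.918% were called). These are means ± SD of n = 4 mice a sex. The risperidone females, at 9.91 to 10.84, lay below all 4 vehicle females (11.01 to 12.27). Within females no member was called for risperidone minus vehicle (lowest limma adjusted p of the 9 members 0.4275). Whether the sex difference of Ppargc1a changed under risperidone is tested by the sex-by-risperidone term. That term was 1.48 (SE 0.59, limma adjusted p = 0.988) and did not pass.

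Ppp1r3c went the other way and just missed the threshold. It ran from 7.22 through 10.095 to 12.76 in male livers and from 6.51 through 8.325 to 10.31 in female livers, and 6 of the 12 males lay above every female. The male minus female difference was 1.62 (SE 0.50, 3.07-fold, interval 1.5 to 6.27, limma adjusted p = 0.0513). Without olanzapine M9 it was 1.92 (adjusted p = 0.00674), without vehicle F1 1.82 (adjusted p = 0.0201), and it was called in 6 of 24 fits that left out 1 mouse. Olanzapine M9 was a low male (rank 4 of the 24 livers from the lowest) and vehicle F1 a high female (rank 18). Leaving either out widened the difference, and these 2 fits, singled out after seeing the data, give no independent support.
Within risperidone mice, Ppp1r3c averaged 10.41 ± 1.48 in males and 7.16 ± 0.57 in females (SD, n = 4 each), a difference of 3.25 (SE 0.79, limma adjusted p = 0.0239). The 4 risperidone males were at 8.24 to 11.51 and all lay above the 4 females (6.51 to 7.90). Set against all 8 vehicle mice, 4 risperidone mice lay below every one and 3 above every one. Under vehicle the means were 9.15 ± 1.13 in males and 9.02 ± 0.97 in females. The sex-by-risperidone term was 3.13 (SE 1.12, limma adjusted p = 0.946). Slc2a2 was lower in males by a difference of -0.34 that did not pass (SE 0.14, limma adjusted p = 0.161). No member passed an interaction test in liver, and neither did any gene (0% for each drug, with 5.41% of genes for olanzapine and 4.78% for risperidone at an unadjusted p under 0.05).
A list of 2 red cell markers averaged 8.92 to 9.68 in the 12 male livers and 7.60 to 8.48 in the 12 female livers, and 9 Kupffer cell markers 7.96 to 8.44 in males and 8.72 to 9.64 in females, neither list overlapping between the sexes. The 7 markers of stellate cells and fibroblasts averaged 8.13 to 8.80 in males and 8.63 to 9.54 in females, which overlapped. The part of these cells in the sex differences was not tested, and in bulk tissue fewer cells of a type and less RNA per cell cannot be told apart.

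Of the 117 other pathway genes, 4 were higher in male livers and 11 lower (12.8% called, beside 6.23% of all genes), and 30.8% had an unadjusted p under 0.05, beside 17.5% of all genes. Higher were Gcgr, the glucagon receptor (0.55, SE 0.11, adjusted p = 0.000792), Tdo2 and Gpt of amino acid breakdown (0.58 and 0.55), and Tpi1 (0.52). Lower were the monocarboxylate carriers Slc16a7 (-1.85, SE 0.24, adjusted p = 3.591e-06) and Slc16a1 (-0.53), the pyruvate dehydrogenase kinases Pdk4 (-1.64) and Pdk1 (-0.83), the transcription factor Foxo1 (-0.60), which insulin restrains, and Igfbp1 (-1.79), one of its targets.
The other 5 lower genes were the kinase Sik1 (-0.99), the glucocorticoid-induced Fkbp5 (-0.87), the mitochondrial pyruvate carrier subunit Mpc1 (-0.58), the lysosomal glucosidase Gaa (-0.57) and the phosphatase catalytic subunit Ppp1cc (-0.44), each with a limma adjusted p under 0.05.

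**Figure D4:**
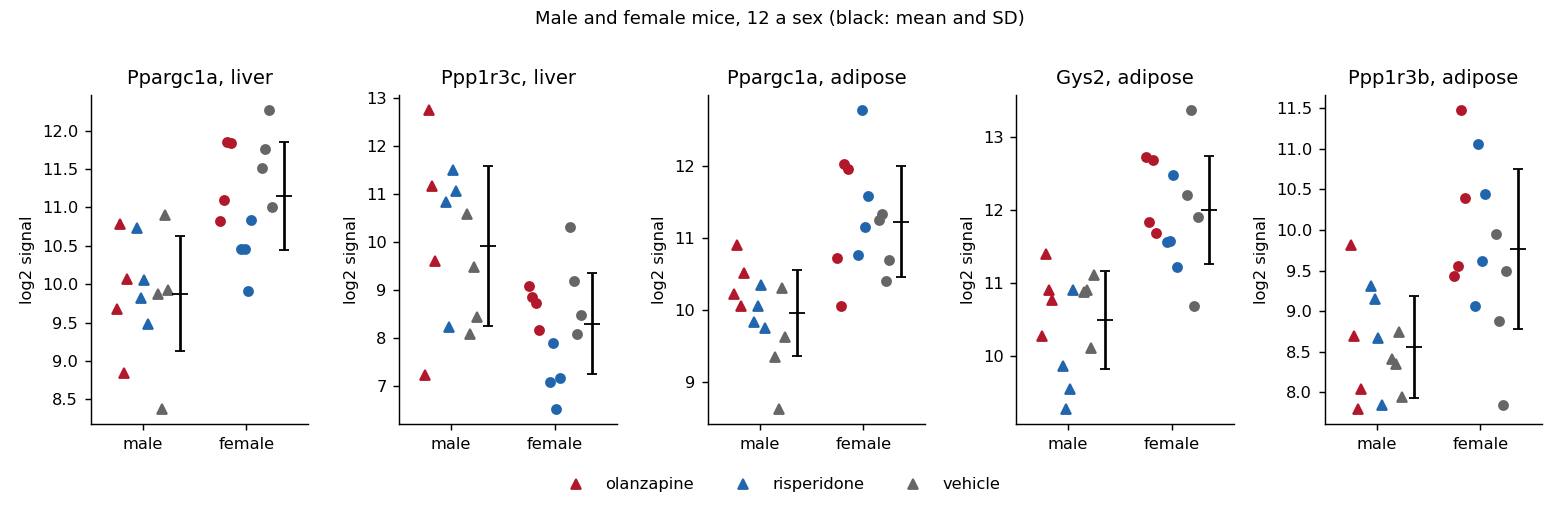
Log2 signal (vertical axis) in 12 male and 12 female mice for Ppargc1a and Ppp1r3c in liver and Ppargc1a, Gys2 and Ppp1r3b in adipose tissue; points are mice coloured by treatment, black bars give mean and SD. Males lie lower in 4 panels (differences from -1.20 for Ppp1r3b to -1.503 for Gys2) and higher for Ppp1r3c in liver (1.62).

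Across the 24 livers the members showed few relations to each other. None of the 36 pairs passed adjustment over the 36 (Pearson, 100000 permutations), while 5 had an unadjusted p under 0.05. The strongest, Pklr with Slc2a2, had r = 0.54 (permutation p = 0.00635, adjusted 0.181) and rho = 0.578 (permutation p = 0.00373, adjusted 0.134), and r = 0.638 without the 2 mice farthest in Pklr. Its r was 0.702 within olanzapine mice, -0.146 within risperidone mice and 0.679 within vehicle mice.
After treatment and sex were fitted out, 3 pairs had an adjusted permutation p of 0.047 each, just under the threshold of 0.05. The permutation exchanged the residuals freely and made no allowance for the fitted terms. Its p-values are therefore too small, and whether any pair would pass with that allowance was not tested. Ppp1r3b with Ppp1r3c had r = 0.574 (permutation p = 0.00318), rho = 0.603 (0.00219) and r = 0.660 without 2 mice (adjusted 0.032). Before treatment and sex were fitted out, its r was 0.118. Pklr with Slc2a2 had r = 0.562 (permutation p = 0.00392), rho = 0.649 (0.00083) and r = 0.503 without 2 mice (adjusted 0.189). Pck1 with Gys2 had r = 0.582 (permutation p = 0.00385) and rho = 0.448 (0.0285, adjusted 0.205). Its r was 0.408 without vehicle F1 and olanzapine M27 (adjusted permutation p = 0.33). Within vehicle mice, where F1 was lowest in both genes, r was 0.921. Of the 3 pairs, only Ppp1r3b with Ppp1r3c stayed under the threshold without 2 mice. Tat with Ppp1r3c, not among the 3, was also under it there (r = 0.618, adjusted permutation p = 0.04). With arrays centred on their medians and no correction for treatment and sex, no pair passed over all 24 livers. Without 2 mice, Pklr with Slc2a2 did (r = 0.655, adjusted permutation p = 0.0382).
The non-members whose residuals over the same 24 livers were most like those of each member were Map3k13 (r = 0.778) and Ccnj (0.721) for Ppp1r3b, Dbp (0.848) and Bri3 (0.848) for Gys2, Rgs16 (0.838) and Olfml1 (0.80) for Slc2a2, and Marchf8 (0.876) and Spc25 (0.845) for Pck1. For Pklr they were Sall2 (0.73) and Gbgt1 (0.711), for Ppargc1a Rbms1 (0.777) and Atp1b1 (0.771), for Fbp1 Nnmt (0.817) and Scn2b (0.807), for Tat Lurap1l (0.773) and Mif4gd (0.747), and for Ppp1r3c Zfp72 (0.795) and Zfp729a (0.746). They are given as descriptions, since each is among the highest of all measured genes on the same arrays.

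In adipose tissue 3 arrays stood apart before any comparison. Risperidone males M4, M5 and M23 had a mean of 18.89 to 19.17 over 7 epididymis markers, genes of the duct that lies against male gonadal fat, while risperidone M24 was at 10.93, olanzapine M9 at 12.26 and the other 19 arrays at 6.82 to 9.39. Their adipocyte markers averaged 11.89 to 12.49, against 13.83 to 15.98 in the other 21 arrays. Results are therefore given with and without them.
Pck1, which in fat supplies glycerol for triglyceride storage, ran from 10.99 through 11.81 to 12.63 in olanzapine mice, from 8.60 through 11.075 to 12.78 in risperidone mice and from 10.97 through 11.795 to 12.97 in vehicle mice. The 3 lowest of all 24 values were those of risperidone M5 (8.60), M4 (8.91) and M23 (9.25). Risperidone males differed from vehicle males by -2.69 (SE 0.52, limma adjusted p = 0.0053, where 4.03% of genes were called), and females by 0.48. The sex-by-risperidone term for Pck1 was -3.17 (SE 0.73, limma adjusted p = 0.111, rank 37 by p), with 0 members called where 0.0513% of genes were. Over both sexes the risperidone minus vehicle difference was -1.11 (SE 0.48, adjusted p = 0.524), and it was 0.01 (SE 0.38) without the 3 arrays, a fit chosen after seeing the data. That fit kept the 4 risperidone females and M24 as the only risperidone male, so it says little about males. M24 was at 11.26, below the 4 vehicle males (11.54 to 12.97).

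**Figure D5:**
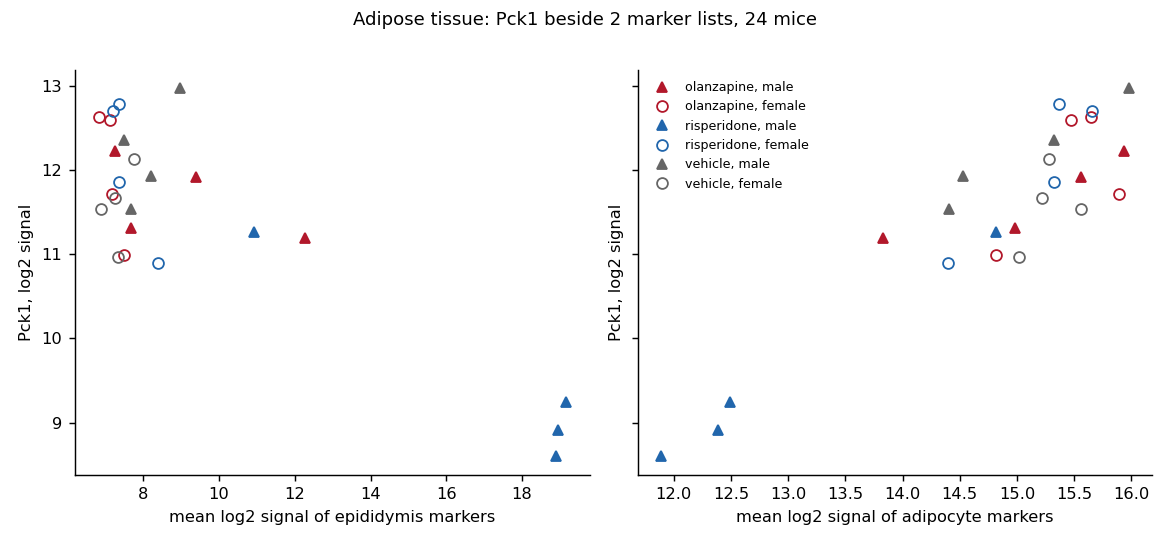
Pck1 log2 signal in adipose tissue (vertical axis) against the mean log2 signal of 7 epididymis markers (left) and of 8 adipocyte markers (right); each point is 1 of 24 mice, coloured by treatment, filled triangles males and open circles females. The 3 risperidone males at 18.89 to 19.17 on the left are the 3 lowest in Pck1 (8.60 to 9.25) and in adipocyte markers.

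For the drugs, no member and no gene was called in adipose tissue for olanzapine minus vehicle, risperidone minus vehicle or olanzapine minus risperidone (0% each by limma, with 5.46%, 9.03% and 9.23% of genes at an unadjusted p under 0.05). Ppp1r3c was the member with the lowest p for olanzapine (0.89, SE 0.37, limma adjusted p = 0.783). The fit without the 3 arrays could not change this difference and is no check on it. Those arrays were all risperidone males, so the olanzapine and vehicle groups stayed whole and balanced for sex. Olanzapine F25 had the highest Ppp1r3c of the 24 (11.31) and olanzapine M25 the second highest (10.32). The sex-by-olanzapine term called 0% of genes and no member.
The sexes differed in 3 of the 9 members, where 4.6% of all genes were called. Gys2 ran from 9.27 through 10.825 to 11.40 in males and from 10.69 through 11.87 to 13.37 in females, a difference of -1.503 (SE 0.25, adjusted p = 0.000518, 2.83-fold lower in males, 1.97 to 4.07). Ppargc1a ran from 8.62 through 10.055 to 10.91 in males and from 10.05 through 11.20 to 12.78 in females, a difference of -1.26 (SE 0.25, adjusted p = 0.0032). Ppp1r3b ran from 7.79 through 8.54 to 9.81 in males and from 7.84 through 9.59 to 11.48 in females, a difference of -1.20 (SE 0.30, adjusted p = 0.020). Males and females overlapped in each.
Without the 3 arrays the differences were -1.26 for Gys2 (adjusted p = 0.00749), -1.23 for Ppargc1a (0.0169) and -1.33 for Ppp1r3b (0.0281), where 4.93% of genes were called. Without 5 arrays (risperidone M24 and olanzapine M9 left out too, so that no risperidone male remained) they were -1.26 for Gys2 (adjusted p = 0.0437), -1.10 for Ppargc1a (0.123) and -1.31 for Ppp1r3b (0.0919), and Gys2 alone stayed called, where 1.49% of genes were. A list of 6 brown adipocyte markers averaged 5.88 to 6.97 in male fat and 7.93 to 10.50 in female fat without overlap; its part in the sex differences was not tested.

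In pancreas no member and no gene was called for either drug against vehicle or between the drugs (0% each by limma, with 8.24%, 3.24% and 4.02% of genes at an unadjusted p under 0.05), and no member was called between the sexes, where 0.108% of genes were. Both interaction terms called 0%. Arrays of the same group correlated less here (r of 0.605 to 0.877) than in liver (0.961 to 0.989), and the typical standard error was larger (median 0.292 against 0.167 in liver).
Tat showed how single arrays carried values. It lay between 4.11 and 6.26 in 21 of the 24 pancreases and at 8.02 in olanzapine M25, 9.18 in risperidone F4 and 9.17 in vehicle M3. The mean of 10 hepatocyte markers in these 3 arrays was 9.24, 14.83 and 11.12, and 6.62 to 12.90 in the others, with vehicle M19 at 12.90 and risperidone F5 at 10.52. The risperidone minus vehicle difference of Tat was 1.03 (SE 0.65, adjusted p = 0.999), and 1.13 (SE 0.46, adjusted p = 0.9998) without the 4 arrays whose hepatocyte markers exceeded 10, a fit chosen after seeing the data.

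In striatum the members did not differ between groups beyond the test. For olanzapine minus vehicle and risperidone minus vehicle 0 members and 0% of genes were called by limma (10.5% and 5.40% of genes at an unadjusted p under 0.05). Between the drugs 0 members were called although 4.86% of genes were, between the sexes 0 members where 0.39% of genes were, and both interaction terms called 0%.
Slc2a2, whose median percentile in striatum was 46.0, had the lowest p of the members for risperidone. It ran from 7.27 through 7.575 to 7.86 in risperidone mice and from 6.35 through 7.34 to 7.44 in vehicle mice, a difference of 0.42 (SE 0.14, limma adjusted p = 0.913). A list of 6 choroid plexus markers averaged 7.89 to 12.00 in risperidone striata and 7.39 to 11.02 in vehicle striata, and their part was not tested. Ppp1r3c, which in brain is known from astrocytes, ran from 11.16 through 11.50 to 11.74 in males and from 11.21 through 11.83 to 12.17 in females, a difference of -0.31 (SE 0.10, limma adjusted p = 0.287). In liver the sign of that difference was the opposite, 1.62, and the difference between the tissues was not tested.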

How the data were processed

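The deposited table holds log2 values for 22206 transcript clusters on 96 arrays, made by the authors with RMA (background correction, quantile normalisation and probe summary). The tool listed for the deposit was Expression Console 1.4 by Affymetrix, while the methods name the Babelomics suite. Whether tissues were normalised together, and the genome build, are not given in the sources used here. Quantile normalisation ties arrays to 1 distribution, so a shift shared by all genes cannot be seen. Liver and striatum were labelled with the WT PLUS kit, pancreas and adipose tissue with the WT Pico kit. Of the clusters, 19572 had 1 gene symbol and 2634 none; clusters of a gene were averaged to 19505 genes, with no filter on dim genes.

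Each tissue was fitted with limma 3.58.1 in R 4.3.3 (treatment plus sex, 24 arrays), with p-values adjusted by Benjamini-Hochberg over all genes and called at an adjusted p under 0.05. A fit with interaction terms gave the values within a sex or treatment. The study's methods related co-expression modules to treatment and gave a gene significance for genes within them; the gene-by-gene limma fit is a choice made here. Marker means were compared by exact permutation over 12870 relabellings, and 4900 within each sex. The fit was tested on simulated data for olanzapine minus vehicle. A log2 difference of 1 was called in 85.1% of changed genes in liver, 59.7% in adipose tissue, 28.4% in pancreas and 92.5% in striatum. For a difference of 0.5 the shares were 28.4%, 10.4%, 0% and 44.8%. The absence of a call therefore says little about small differences, least of all in pancreas. Alternatives were no sex covariate, the compared arrays alone, another prior, array weights, centring, single clusters, a filter, each sex alone and each mouse left out.

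The 9 members and all lists were chosen with earlier results of these data known. The text names every member, of each pathway list the genes called in a drug comparison in liver or with the 3 lowest p-values of each such comparison, and the 2 genes most like each member. Pathway genes called between the sexes fall outside that rule and were named after their values were seen. No arrays of a group were identical (84 pairs a tissue). Each array is 1 mouse, so the spread is between mice. Arrays have no read depth, and 8 mice a group limit the precision.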

Additional observations from a re-analysis of the deposited data

Results flagged for a closer look

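Of 108 groups of 8 mice (9 genes, 4 tissues, 3 treatments), 14 held a mouse far from the other 7 by Dixon's test, where chance alone gives about 1 group in 20. In liver they were vehicle F1, lowest in Pck1 (17.58, the next 18.21) and in Gys2 (13.04, the next 14.81), and risperidone F23, highest in Pck1 (18.42, the next 18.14).

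In pancreas, Tat was far above its group in olanzapine M25 (8.02), risperidone F4 (9.18) and vehicle M3 (9.17), and Ppp1r3b in olanzapine M25 (6.98) and risperidone F4 (7.82). Fbp1 was high in olanzapine M27 (8.41) and Ppargc1a in risperidone M23 (10.89). Slc2a2 was low in olanzapine F26 (5.36) and risperidone M4 (5.74), and Gys2 in vehicle F20 (8.81). In adipose tissue Ppp1r3c was low in vehicle M3 (7.23). No member's interaction of sex and drug passed adjustment in any tissue.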

How the results depend on the processing

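The 144 member effects gave 4692 refitted values over the alternatives. Of these, 4526 stayed called or, where not called, within 1 standard error of the value reported, 132 that were not called moved by more, 15 lost a call, 19 gained one and 0 turned direction while called. The opposite sign, with no call, was seen in 306 of the 4692. None of the 132 came from leaving out 1 mouse, which gave 216 of the values in each tissue and comparison. Single clusters could not change a difference, since each member has 1 cluster. For risperidone minus vehicle in liver the members called (0) became 1, Ppp1r3b, with array weights, with centred arrays (adjusted p of 0.0166 and 0.0429) and without vehicle F1 and olanzapine M9 together (0.00677), and ran from 0 to 1 with single mice left out (1 without vehicle F1, F21 or M1 or olanzapine M9 or M25). For olanzapine minus risperidone (1) the count was 0 without the sex covariate, with the trended and robust prior (adjusted p of Ppp1r3b 0.0898 and 0.0558) and in females alone, and ran from 0 to 1 with single mice left out (0 without risperidone F4, F5, F6, M23 or M24 or olanzapine F7, F25, M26 or M27). In males alone it was 1, Pklr in place of Ppp1r3b. For male minus female in liver (1) it was 2, with Ppp1r3c added, under array weights, centring, the filter on dim genes and without vehicle F1 and olanzapine M9, and ran from 1 to 2 with single mice left out (2 without vehicle F1, F2, M3 or M21, risperidone M5 or olanzapine M9). In adipose tissue the male minus female count (3) was 1 without the 5 arrays with epididymis markers above 10. Sex by treatment there (0) was 1 with array weights and ran from 0 to 1 with single mice left out (Pck1, without risperidone M24, limma adjusted p = 0.000408). Without M24 the only risperidone males left were M4, M5 and M23, the arrays set apart above by high epididymis and low adipocyte markers. The relations in liver (0 pairs) became 3 after treatment and sex were fitted out, by a permutation that made no allowance for the fitted terms. The causes were not tested. The fits without named sets of 2 to 5 arrays were chosen after seeing the data.

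Over all genes, calls in liver ranged from 0 to 19 for olanzapine minus vehicle (4 in the fit reported), from 1 to 19 for risperidone minus vehicle (8) and from 2 to 39 for olanzapine minus risperidone (11). They ranged from 291 to 1287 for male minus female in adipose tissue (897), from 3 to 1839 for sex by risperidone there (10) and from 0 to 2229 for olanzapine minus risperidone in striatum (948). No paired analysis was possible because the treatment groups of a tissue were different mice that share no number, and a number common to a male and a female names different mice.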
